A study of Mus musculus with 53 samples.

Results

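The genes Zbp1, Ddx58, Ifih1, Dhx58, Mavs, Cgas, Tmem173, Tlr3, Eif2ak2 and Adar encode sensors of foreign or misplaced DNA and RNA, the adaptors of those sensors and enzymes that act on double-stranded RNA. They were taken by symbol, old or current, from 2 deposited tables of RNA levels, and all 10 were found among the 43432 genes that each table lists. The study used mouse embryonic fibroblasts (MEFs), connective tissue cells grown from embryos, either wild type (WT) or, by their label, Anp32e knockout (KO); Anp32e encodes a chaperone that takes the histone variant H2A.Z out of chromatin. The first table, in FPKM, has 2 libraries of each genotype in DMSO and 3 of each in DAC. DAC is decitabine, a cytidine analogue that lowers DNA methylation, and DMSO is its solvent. The other table holds 3 libraries each of WT and KO cells given NT siRNA, the label of the control siRNA, or H2AZ siRNA, which targets H2A.Z, in RPKM. FPKM is fragments (read pairs) and RPKM reads per kilobase of gene, each scaled by the depth of the library. All 8 groups are MEFs, and no source used here gives the dose, the time, the age of the embryos or the knockout allele. The labels call the libraries biological replicates, and those of KO H2AZ siRNA only replicates. Nothing says that they came from separate cultures or embryos, so p-values measure the spread between these samples, which may be technical.

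Cells read nucleic acids in the wrong place as a sign of infection or damage. RIG-I (Ddx58) and MDA5 (Ifih1) bind RNA in the cytosol and signal through MAVS on mitochondria, cGAS (Cgas) binds DNA and makes cyclic GMP-AMP for STING (Tmem173), TLR3 binds double-stranded RNA in endosomes and ZBP1 binds nucleic acids in the Z form. These routes lead to type I interferon, inflammatory genes or cell death. PKR (Eif2ak2) stops translation when it binds double-stranded RNA, and ADAR edits adenosines in such RNA and so keeps a cell's own transcripts from being read as foreign. Many of these genes are themselves raised by interferon. Decitabine is known in other cells to raise transcripts of silenced repeats, which such sensors can bind. Repeats were not analysed here.

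The RefSeq promoter table (assembly GRCm38.p6, the mm10 build), which spans 250 bases before to 50 after a gene start, held 7 of the 10 genes: Ddx58, Ifih1, Mavs, Cgas, Tlr3, Eif2ak2 and Adar, the last with 3 starts. They were searched on both strands for the core of the interferon-stimulated response element, GAAA repeated after a gap of 2 bases, and for AANNGAAA, a shorter core bound by interferon regulatory factors that was added after the sequences had been seen and overlaps the first. The response element core was found in 3 of the 7 genes, Ddx58, Eif2ak2 and Ifih1, and in 3.4% of all 32851 promoters. AANNGAAA was found in 5 of the 7, those 3 with Adar and Tlr3, and in 23.9% of all promoters. Counted by promoter, as all promoters were, these were 3 and 5 of the 9 promoters of the 7 genes. Mavs and Cgas held neither. A match describes letters and does not show that a factor binds. The windows of 30 bases around the matches are printed 5′ to 3′ on the gene's strand, because they set the 5 genes with a match apart from the other 2, and capitals mark the matched letters.
Ifih1, chr2:62646206-62646235, minus strand: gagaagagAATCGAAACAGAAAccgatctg
Ddx58, chr4:40239804-40239833, minus strand, response element core on the opposite strand: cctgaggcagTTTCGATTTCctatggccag
Ddx58, chr4:40239866-40239895, minus strand: tctaggttcagAAACGAAActggatccccg
Eif2ak2, chr17:78882535-78882564, minus strand: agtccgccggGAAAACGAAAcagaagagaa
Adar, chr3:89730736-89730765, plus strand: ccttttcaaggAAACGAAAgtgaactctgg
Tlr3, chr8:45410421-45410450, minus strand, AANNGAAA on the opposite strand: aagtgaatggcTTTCACTTtgtttagacac

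The other motifs searched were TTCNNNGAA, the core of the gamma-activated site, in 2 of the 7 genes (Adar and Eif2ak2) and 8.3% of all promoters, and TATAAA in 1 of 7 (Ddx58) and 13.6%. CGCG stood in the promoters of 7 of 7 genes and in 38.0% of all. Counted by promoter, TTCNNNGAA, TATAAA and CGCG stood in 2, 1 and 8 of the 9 promoters of these genes. CG pairs, the sites that DNA methyltransferases act on, numbered 6 to 34 in the 9 promoters of the 7 genes, against a median of 7 over all promoters. The bases before the starts of Mavs and Cgas, the 2 genes without either interferon core, are shown with CG in capitals.
Mavs, chr2:131233813-131234062, plus strand: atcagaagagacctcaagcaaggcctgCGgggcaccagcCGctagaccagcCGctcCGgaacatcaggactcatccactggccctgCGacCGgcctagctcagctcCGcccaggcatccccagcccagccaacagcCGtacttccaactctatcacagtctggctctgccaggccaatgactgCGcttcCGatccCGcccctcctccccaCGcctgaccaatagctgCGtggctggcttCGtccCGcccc
Cgas, chr9:78443238-78443487, minus strand: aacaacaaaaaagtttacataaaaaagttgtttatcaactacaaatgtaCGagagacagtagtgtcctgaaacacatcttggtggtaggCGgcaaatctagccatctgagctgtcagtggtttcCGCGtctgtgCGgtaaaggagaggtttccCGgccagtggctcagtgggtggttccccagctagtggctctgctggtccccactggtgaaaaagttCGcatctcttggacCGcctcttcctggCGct
Mavs had 15 CG and Cgas 9 in these 250 bases. DNA methylation was not measured, so no value ties these letters to the levels that follow.

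Libraries held 27503472 to 36910532 reads in the DAC experiment and 31928320 to 47172427 in the siRNA experiment. Anp32e was at 14.1 to 17.2 FPKM in WT and 4.87 to 7.48 in KO, and at 16.9 to 21.4 RPKM in WT and 4.36 to 6.12 in KO, so its transcript was lower but present in every KO library. WT DAC replicate 3 and KO DAC replicate 1 correlated less with their groups (r across genes 0.9791 to 0.9813) than the other 2 libraries of each group did with each other (0.9865 and 0.9872). WT NT siRNA replicate 1 and KO NT siRNA replicate 1 did so by less (0.9938 to 0.9949, against 0.9963 and 0.9952). All 10 fibroblast markers were at 1 or more in every group. In DMSO they summed to 3350 to 3470 FPKM in WT and 1920 to 1960 in KO. The DAC sums were 2220 to 2360 in WT and 1840 to 2020 in KO. With NT siRNA the sums were 1150 to 1170 RPKM in WT and 1270 to 1320 in KO. H2AZ siRNA groups summed to 1110 to 1150 in WT and 1140 to 1200 in KO. Of 12 macrophage markers only 2 reached 1 in a group, Cd68 and Cd14, or Cd68 and Csf1r in KO DMSO, and the macrophage gene Adgre1 was at 0 in every library of the DAC table. The 9 mesothelial markers found summed to 9.33 to 11.7 FPKM in WT DMSO, 38.7 to 49.9 in WT DAC, 1030 to 1060 in KO DMSO and 109 to 127 in KO DAC, and to 18.5 to 20.4 RPKM in WT and 154 to 187 in KO in the siRNA table. The 7 epithelial markers summed to 0.663 to 1.35 FPKM in WT DMSO, 5.68 to 9.33 in WT DAC, 28 to 30.2 in KO DMSO and 16.9 to 20.8 in KO DAC, most of it Krt18 in KO. Ddx3y, Uty, Kdm5d and Eif2s3y, which lie on the Y chromosome, were at 1.14 to 7.98 in KO libraries and at 0.0721 or less in WT libraries. Xist, the RNA of the inactive X chromosome, was at 169.7 to 181 FPKM in WT DMSO, 136 to 210.1 in WT DAC, 0.579 to 0.923 in KO DMSO and 28.5 to 44.4 in KO DAC. The knockout, the sex of the cells and the mesothelial and epithelial transcripts cannot be told apart in any KO to WT difference. The part of these markers in the results that follow was not tested. In such bulk samples fewer cells of a type and less RNA per cell cannot be told apart either.

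In WT DMSO cells the order of mean levels per kilobase ran from Ddx58 (33.2 FPKM) through Adar (29.5), Eif2ak2 (26.2), Tmem173 (14.7), Ifih1 (9.97), Mavs (7.43), Dhx58 (6.35), Tlr3 (5.56) and Cgas (3.93) to Zbp1 (2.46). No 2 neighbours in that order had overlapping libraries. In KO DMSO cells Tmem173 came first at 25.1 FPKM, before Eif2ak2, Ddx58 and Adar at 15.8, 13.8 and 11.7, and the 2 lowest genes, Zbp1 and Cgas, overlapped. Zbp1 moved from last place in WT DMSO to the third in WT DAC and the second in KO DAC. There it overlapped Eif2ak2 and Tmem173 in WT DAC, and Ddx58 and Adar in KO DAC, so its place among those genes is not fixed beyond their spread.

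**Figure D1:**
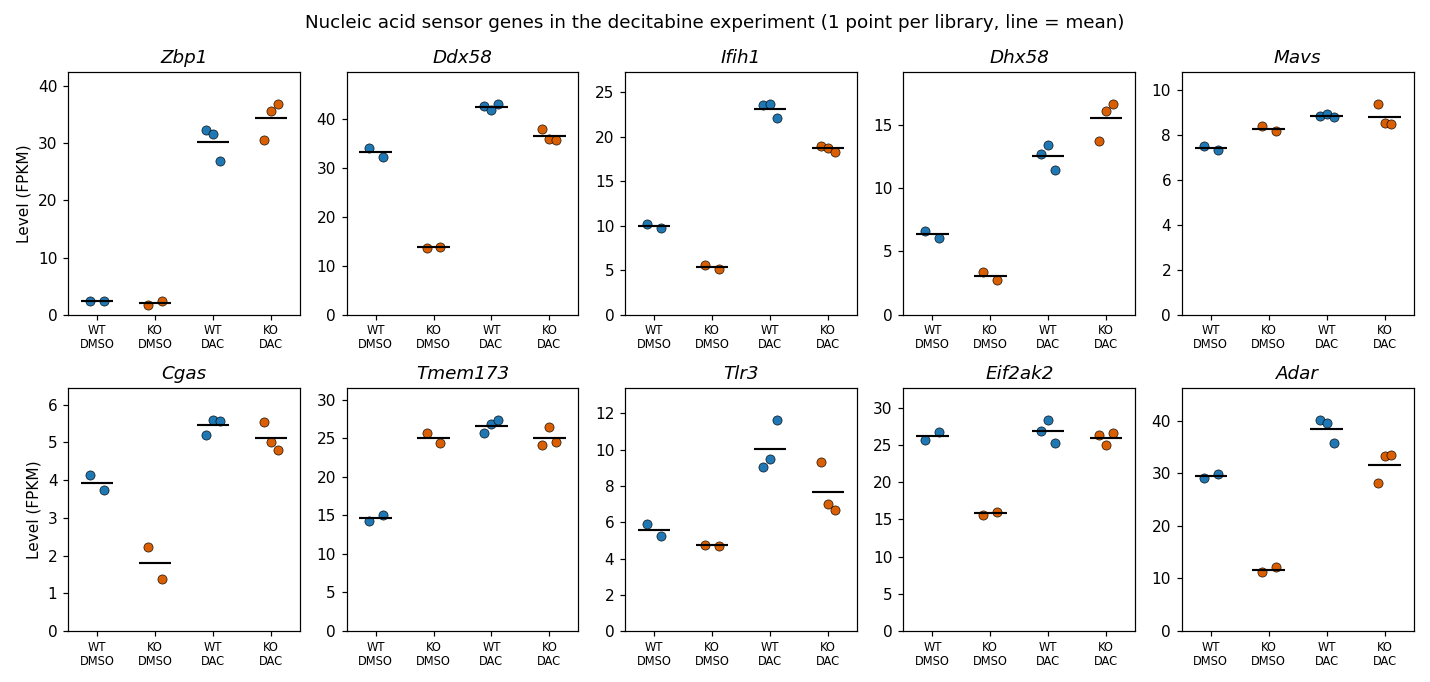
Levels of the 10 genes in FPKM on the vertical axis, each panel from 0, in the 4 groups of the decitabine experiment, with 1 point per library (blue WT, orange KO) and a line at the mean. KO DMSO is the lowest group for 8 of the genes and WT DMSO for Tmem173 and Mavs, and the DAC groups lie close together in most panels.

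Decitabine was followed by higher RNA of most of these genes in both genotypes. In WT, 9 of 10 passed the threshold (limma adjusted p under 0.05) as higher, against 14.5% of the 16434 genes tested (28.3% in either direction), and Eif2ak2 did not. In KO, 8 of 10 passed as higher, against 23.7% of genes tested (45.2% in either direction), and Mavs and Tmem173 did not. No gene of the 10 passed as lower in either, and at an unadjusted p under 0.05 or by limma-voom none did. The median log2 fold change over the 10 was 0.57 in WT and 1.24 in KO, beside −0.01 and 0.01 over all genes tested. Between genotypes, in DMSO 6 of the 10 were lower in KO and 1, Tmem173, was higher, against 22.9% and 19.6% of genes tested. In DAC 3 were lower, against 11.6%, and none was higher, against 11.1%; 1 gene, Dhx58, was higher at an unadjusted p under 0.05 and by limma-voom (adjusted p = 0.023). The DAC response differed between genotypes (the interaction, the log2 change in KO minus that in WT) for 7 of 10, against 24.1% of genes tested: 6 had the larger rise in KO and Tmem173 the smaller. These comparisons share libraries: the KO to WT difference in DMSO and the interaction use all 4 DMSO libraries, each DAC response uses the 2 of its own genotype, and the KO to WT difference in DAC uses the 6 DAC libraries that also enter the responses.

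**Figure D2:**
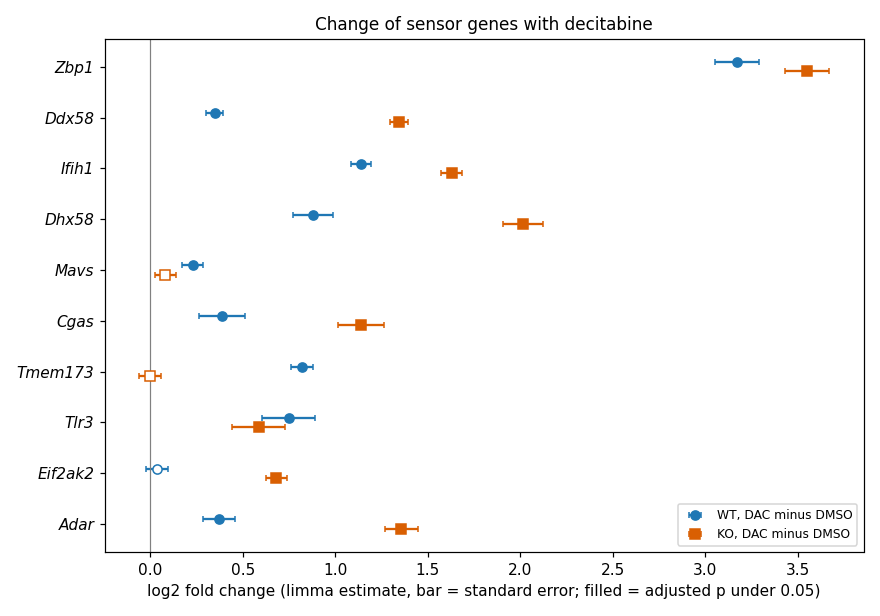
Log2 fold change of DAC against DMSO on the horizontal axis, with standard errors, for each gene in WT (circles) and KO (squares), filled where the limma adjusted p was under 0.05. The KO square lies to the right of the WT circle for 7 of 10 genes and to the left for Mavs, Tmem173 and Tlr3.

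Leaving out both libraries of the DAC table that stand apart gave 8 higher in WT, 8 in KO, 8 KO to WT calls in DMSO, 5 in DAC and 7 interactions. The shares of all genes called in that refit are not given here, so these counts have no background beside them. Leaving out WT DMSO replicate 2 alone left 5 calls in WT, Zbp1, Ddx58, Ifih1, Dhx58 and Tmem173, with 1 WT DMSO library that is then assumed to vary like the other groups.

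Among the cytosolic RNA receptors, Ddx58 (ENSMUSG00000040296, chromosome 4, 40203777 to 40239825 in GRCm38), which encodes RIG-I, was at 34.1 and 32.2 FPKM in WT DMSO, 13.6 and 13.9 in KO DMSO, 42.5, 41.8 and 43.1 in WT DAC and 37.8, 35.9 and 35.6 in KO DAC. The 2 KO DMSO libraries lay far below all others, and no 2 groups overlapped. Ddx58 was 2.41-fold higher in WT than in KO in DMSO (log2 fold change −1.21 ± 0.05 SE, limma adjusted p = 4.8e-07), and 1.16-fold higher in DAC (−0.22 ± 0.04, adjusted p = 0.008). After DAC it rose by 0.35 ± 0.05 in WT cells (adjusted p = 0.00094) and, by more, in KO cells (1.34 ± 0.05, adjusted p = 2e-07), with a difference between the responses of 1.00 ± 0.07 (adjusted p = 2.2e-05).

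Ifih1 (ENSMUSG00000026896, chromosome 2, 62595618 to 62646255) encodes MDA5, the receptor for long double-stranded RNA. It was at 10.2 and 9.77 FPKM in WT DMSO, 5.59 and 5.16 in KO DMSO, 23.6, 23.8 and 22.1 in WT DAC and 19.0, 18.7 and 18.4 in KO DAC. The groups again did not overlap, and both DAC groups lay above both DMSO groups. Ifih1 rose 2.32-fold in WT (1.14 ± 0.06, limma adjusted p = 7.5e-06) and 3.48-fold in KO (1.63 ± 0.06, adjusted p = 1.6e-07). The responses differed by 0.49 ± 0.08 (adjusted p = 0.0024), and Ifih1 was lower in KO in DMSO (−0.78 ± 0.06, adjusted p = 1.4e-05) and in DAC (−0.29 ± 0.05, adjusted p = 0.0039).

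Dhx58 (ENSMUSG00000017830, chromosome 11, 100694884 to 100704271) encodes LGP2, a relative of both receptors that lacks their signalling domain and tunes them. Its levels were 6.66 and 6.05 FPKM in WT DMSO, 3.40 and 2.78 in KO DMSO, 12.7, 13.4 and 11.5 in WT DAC and 13.8, 16.1 and 16.7 in KO DAC. Here KO was the lower genotype in DMSO, and in DAC every KO library lay above every WT library. The DMSO difference passed (−0.85 ± 0.12, limma adjusted p = 0.00043). The DAC difference of 0.29 ± 0.09 did not (adjusted p = 0.063), but it passed without KO DAC replicate 1 (0.365, adjusted p = 0.03) and without both libraries that stand apart (0.31, adjusted p = 0.044). Dhx58 rose 1.97-fold in WT (0.88 ± 0.11, adjusted p = 0.00046) and 5.03-fold in KO (2.01 ± 0.11, adjusted p = 1.5e-06). The interaction of 1.14 ± 0.15 (adjusted p = 8e-04) was the largest of the 10.

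Mavs (ENSMUSG00000037523, chromosome 2, 131234063 to 131248025), the adaptor on which RIG-I and MDA5 converge, moved little. It was at 7.5 and 7.36 FPKM in WT DMSO, 8.40 and 8.19 in KO DMSO, 8.87, 8.93 and 8.83 in WT DAC and 9.42, 8.57 and 8.50 in KO DAC. The 2 WT DMSO libraries were the lowest and KO DAC replicate 1 the highest. Mavs rose with DAC in WT by 0.23 ± 0.06 (limma adjusted p = 0.019), a call lost without WT DAC replicate 2 (adjusted p = 0.056), WT DMSO replicate 1 (0.074) or WT DMSO replicate 2 (0.12). In KO the change of 0.08 ± 0.06 did not pass (adjusted p = 0.3). The KO to WT differences were 0.14 ± 0.06 in DMSO (adjusted p = 0.11, or 0.041 without both libraries that stand apart) and −0.01 ± 0.05 in DAC (adjusted p = 0.94).

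In the DNA branch the sensor was lower and its adaptor higher in KO in DMSO, and neither difference passed in DAC. Cgas (ENSMUSG00000032344, chromosome 9, 78430518 to 78443237), the sensor, was at 4.12 and 3.74 FPKM in WT DMSO, 2.22 and 1.39 in KO DMSO, 5.19, 5.6 and 5.56 in WT DAC and 5.53, 5.02 and 4.80 in KO DAC. KO DMSO was lowest and the 2 DAC groups overlapped. Cgas was lower in KO in DMSO (−0.83 ± 0.13, limma adjusted p = 0.0012) but not shown to differ in DAC (−0.08 ± 0.11, adjusted p = 0.67). It rose 2.83-fold with DAC in KO (1.14 ± 0.12, adjusted p = 1e-04). The rise in WT, 1.39-fold (0.39 ± 0.12, adjusted p = 0.045), was lost with a pseudocount of 0.1 (adjusted p = 0.078), without a filter on low genes (0.079), without both libraries that stand apart (0.084), without any 1 of the 5 WT libraries (0.071 to 0.23) and without KO DAC replicate 2 (0.067) or 3 (0.061). The interaction of 0.75 ± 0.17 (adjusted p = 0.014) was lost without WT DMSO replicate 1 (adjusted p = 0.059).

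Tmem173 (ENSMUSG00000024349) encodes STING, the adaptor of cGAS at the endoplasmic reticulum. It was at 14.3 and 15.1 FPKM in WT DMSO, 25.7 and 24.4 in KO DMSO, 25.7, 26.9 and 27.4 in WT DAC and 24.1, 26.5 and 24.5 in KO DAC. WT DMSO was the low group, and the other 3 groups overlapped. In DMSO Tmem173 was 1.71-fold higher in KO (0.73 ± 0.06, limma adjusted p = 2.8e-05), while in DAC the difference of −0.09 ± 0.05 did not pass (adjusted p = 0.28). It rose 1.82-fold with DAC in WT (0.82 ± 0.06, adjusted p = 3.5e-05). In KO the change was −0.0016 ± 0.0585 (adjusted p = 0.99), and the interaction was −0.82 ± 0.08 (adjusted p = 0.00017). The mesothelial markers summed to 9.33 to 11.7 FPKM in WT DMSO, 38.7 to 49.9 in WT DAC, 1030 to 1060 in KO DMSO and 109 to 127 in KO DAC. Krt19, which is among them, was lower in KO DMSO (1.96 to 1.98 FPKM) than in WT DMSO (2.31 to 3.13). The part of these markers in the Tmem173 result was not tested.

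Tlr3 (ENSMUSG00000031639, chromosome 8, 45395665 to 45411075), the endosomal receptor for double-stranded RNA, was at 5.89 and 5.24 FPKM in WT DMSO, 4.76 and 4.71 in KO DMSO, 9.02, 9.50 and 11.7 in WT DAC and 9.33, 7.0 and 6.69 in KO DAC. The highest values of the DAC groups were those of WT DAC replicate 3 and KO DAC replicate 1, the libraries that stand apart. Tlr3 rose 1.81-fold in WT (0.75 ± 0.14, limma adjusted p = 0.0049) and 1.62-fold in KO (0.58 ± 0.14, adjusted p = 0.0094). Without both libraries the rises were 0.65 (adjusted p = 0.00072) and 0.45 (adjusted p = 0.0017). The WT call was lost without WT DMSO replicate 2 (adjusted p = 0.051), and the KO call without KO DMSO replicate 1 (0.05 after rounding) or 2 (0.052). The KO to WT difference in DAC, −0.35 ± 0.13, did not pass (adjusted p = 0.081), but passed without KO DAC replicate 1 (−0.49, adjusted p = 0.017) and without both libraries that stand apart (−0.39, adjusted p = 0.0089). In DMSO it was −0.19 ± 0.16 (adjusted p = 0.36), and the interaction was −0.16 ± 0.20 (adjusted p = 0.63).

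Zbp1 (ENSMUSG00000027514, chromosome 2, 173206612 to 173218959), the Z-form sensor that can start RIPK3-dependent cell death, had the largest DAC response of the 10 in each genotype. It was at 2.49 and 2.44 FPKM in WT DMSO, 1.71 and 2.36 in KO DMSO, 32.3, 31.7 and 26.9 in WT DAC and 30.7, 35.6 and 37.0 in KO DAC. These values rest on 166 to 271 reads in a DMSO library and 3043 to 4814 in a DAC library. Zbp1 rose 12.3-fold in WT (3.17 ± 0.12, limma adjusted p = 3.3e-06) and 16.9-fold in KO (3.55 ± 0.12, adjusted p = 1.5e-07). Neither KO to WT difference passed (−0.20 ± 0.13, adjusted p = 0.26 in DMSO and 0.18 ± 0.11, adjusted p = 0.28 in DAC), nor did the interaction (0.38 ± 0.17, adjusted p = 0.15). The log2 scale with 1 added to each value understates a change from low levels such as these.

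Of the 2 genes that act on double-stranded RNA, Eif2ak2 (ENSMUSG00000024079, chromosome 17, 78850504 to 78882572) encodes the kinase PKR. It was at 25.7 and 26.7 FPKM in WT DMSO, 15.6 and 16.0 in KO DMSO, 26.9, 28.4 and 25.3 in WT DAC and 26.4, 24.9 and 26.6 in KO DAC. KO DMSO alone stood apart, and the other 3 groups overlapped. Eif2ak2 was lower in KO in DMSO (−0.69 ± 0.06, limma adjusted p = 4e-05) and rose with DAC in KO 1.64-fold (0.68 ± 0.06, adjusted p = 2.6e-05). It changed by 0.03 ± 0.06 in WT (adjusted p = 0.72), and in DAC the genotypes differed by −0.05 ± 0.05 (adjusted p = 0.58). The interaction was 0.65 ± 0.08 (adjusted p = 0.00067).

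Adar (ENSMUSG00000027951, chromosome 3, 89714469 to 89753455) encodes the editing enzyme in a constitutive and an interferon-inducible form, which gene-level values do not separate. It was at 29.0 and 29.95 FPKM in WT DMSO, 11.2 and 12.2 in KO DMSO, 40.2, 39.5 and 35.8 in WT DAC and 28.1, 33.3 and 33.4 in KO DAC. No 2 groups overlapped within a genotype or a treatment, and KO DMSO lay below all others. Adar had the largest KO to WT difference of the 10 in DMSO, 2.52-fold higher in WT (−1.26 ± 0.10, limma adjusted p = 1.1e-05). It rose 2.70-fold with DAC in KO (1.36 ± 0.09, adjusted p = 4.6e-06) and 1.30-fold in WT (0.37 ± 0.09, adjusted p = 0.013), the latter lost without WT DMSO replicate 1 (adjusted p = 0.08) or 2 (0.067). The interaction was 0.99 ± 0.12 (adjusted p = 0.00059). In DAC Adar was lower in KO by −0.28 ± 0.08 (adjusted p = 0.034), a call that ended without the filter (0.054), with only the DAC groups in the fit (0.077) and without KO DAC replicate 1 (0.067), WT DAC replicate 1 or 2 (0.11 each) or either WT DMSO library (0.053).

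In the siRNA experiment the same genes were compared between genotypes in cells that received no DAC. With either siRNA, Ddx58, Ifih1, Cgas, Eif2ak2 and Adar were lower in KO and Dhx58, Mavs and Tmem173 higher. This made 5 lower and 3 higher of the 8 genes tested, against 40.4% and 23.7% of the 12668 genes tested with NT siRNA, and 42.7% and 20.2% with H2AZ siRNA. All 8 were thus called in 1 direction or the other, where 64.1% and 62.9% of all genes tested were. Zbp1 and Tlr3 were below 1 RPKM in too many libraries to be tested. Dhx58 reached 1 RPKM in 4 KO libraries and 0 WT libraries, so it entered the test only through the genotype in which it is high, and the 3 higher and the total of 8 hold it as a description. Without the filter, which also tests Tlr3, the counts were 6 lower and 3 higher of 10 with each siRNA. The shares above are of the filtered genes. Those of the unfiltered fit are not given here, so its counts are a description. The median of all genes tested was itself shifted, to −0.10 with NT siRNA and −0.12 with H2AZ siRNA. Setting each library to a common median moved these to 0.03 and 0.03 and changed the split of all called genes from 3004 higher and 5122 lower to 4288 and 3780 with NT siRNA, and from 2563 and 5409 to 4281 and 3635 with H2AZ siRNA. All 8 genes kept their direction under it, and Adar with NT siRNA lost its call.

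**Figure D3:**
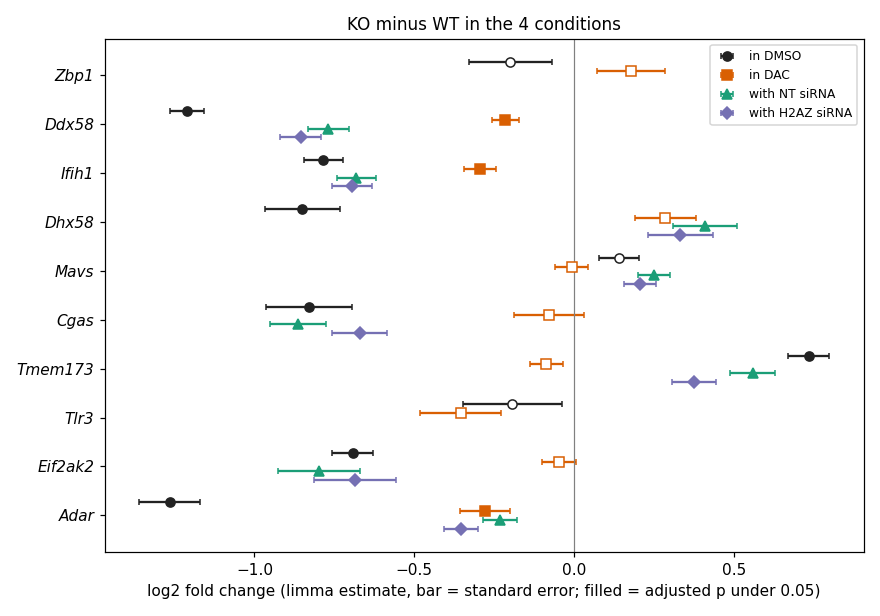
Log2 fold change of KO against WT on the horizontal axis, with standard errors, in DMSO, DAC, NT siRNA and H2AZ siRNA, filled where the limma adjusted p was under 0.05. Ddx58 and Ifih1 lie left of 0 in all 4 conditions, Tmem173 lies right of 0 in all but DAC, and Dhx58 lies left of 0 in DMSO only; Zbp1 and Tlr3 were tested in DMSO and DAC only.

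Among the RNA receptors, Ddx58 was at 12.9, 10.6 and 11.6 RPKM in WT NT siRNA, 6.65, 6.49 and 6.21 in KO NT siRNA, 9.96, 10.2 and 10.1 in WT H2AZ siRNA and 5.33, 4.79 and 5.28 in KO H2AZ siRNA. Every KO library lay below every WT library. The KO to WT change was −0.77 ± 0.06 under NT siRNA (limma adjusted p = 1.8e-06) and −0.86 ± 0.06 under H2AZ siRNA (adjusted p = 7.8e-07). Ifih1 was at 5.07 to 5.92 RPKM in WT NT siRNA, 2.83 to 3.21 in KO NT siRNA, 4.87 to 5.25 in WT H2AZ siRNA and 2.64 to 2.77 in KO H2AZ siRNA, and it was lower in KO by −0.68 ± 0.06 (adjusted p = 3.3e-06) and −0.69 ± 0.06 (adjusted p = 3e-06).

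Dhx58 went the other way from DMSO. It was at 0.786, 0.457 and 0.609 RPKM in WT NT siRNA, 0.983, 1.11 and 1.35 in KO NT siRNA, 0.661, 0.680 and 0.603 in WT H2AZ siRNA and 1.32, 0.844 and 1.08 in KO H2AZ siRNA. These are 63 to 202 reads per library, and the KO libraries lay above the WT libraries with each siRNA. KO exceeded WT in Dhx58, which passed the filter through KO libraries alone, by 0.41 ± 0.10 under NT siRNA (limma adjusted p = 0.0041) and 0.33 ± 0.10 under H2AZ siRNA (adjusted p = 0.014), the latter lost without KO H2AZ siRNA replicate 1 (adjusted p = 0.06). With no filter the adjusted p was 0.015 and 0.042. The DMSO value was −0.85. The 2 tables were scaled separately, so no test was run across them. Mavs was at 5.25 to 5.53 RPKM in WT NT siRNA and 6.43 to 6.71 in KO NT siRNA, and at 3.86 to 4.18 and 4.53 to 5.03 with H2AZ siRNA. It was higher in KO by 0.25 ± 0.05 (adjusted p = 0.001) and 0.20 ± 0.05 (adjusted p = 0.0038).

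In the DNA branch, Cgas was at 3.14, 2.44 and 2.32 RPKM in WT NT siRNA, 0.992, 0.963 and 1.01 in KO NT siRNA, 2.57, 2.26 and 2.65 in WT H2AZ siRNA and 1.30, 1.03 and 1.25 in KO H2AZ siRNA. It was lower in KO 2.66-fold with NT siRNA (−0.86 ± 0.09, limma adjusted p = 7.4e-06) and 2.09-fold with H2AZ siRNA (−0.67 ± 0.09, adjusted p = 5.1e-05). Tmem173 was at 16.6, 14.5 and 15.3 RPKM in WT NT siRNA, 23.7, 22.6 and 23.5 in KO NT siRNA, 14.7, 14.9 and 14.8 in WT H2AZ siRNA and 18.67, 17.95 and 21.98 in KO H2AZ siRNA. It was higher in KO by 0.56 ± 0.07 (adjusted p = 3.6e-05) and 0.37 ± 0.07 (adjusted p = 0.00064). Thus with DMSO, NT siRNA and H2AZ siRNA alike the KO libraries held less Cgas and more Tmem173 RNA than any WT library of the same condition.

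**Figure D4:**
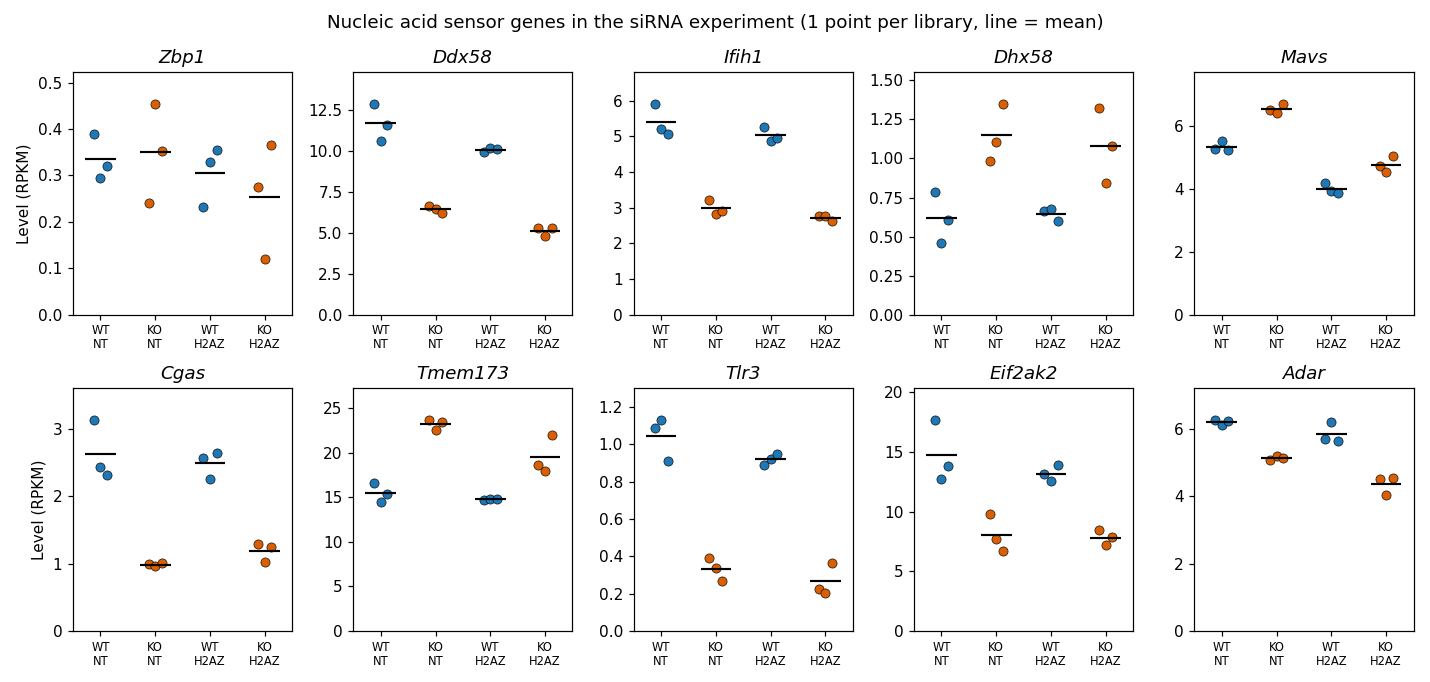
Levels of the 10 genes in RPKM on the vertical axis, each panel from 0, in the 4 groups of the siRNA experiment, with 1 point per library (blue WT, orange KO) and a line at the mean. The colours separate within each siRNA for 9 genes, and Zbp1, at 0.120 to 0.455 RPKM, is the exception. The share of all genes that separate in this way is not given here. Between genotypes, 64.1% of all genes tested were called with NT siRNA and 62.9% with H2AZ siRNA.

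Tlr3 was at 1.09, 1.13 and 0.913 RPKM in WT NT siRNA, 0.392, 0.336 and 0.269 in KO NT siRNA, 0.888, 0.924 and 0.948 in WT H2AZ siRNA and 0.227, 0.203 and 0.367 in KO H2AZ siRNA. All KO libraries lay below all WT libraries. In a fit without the filter on low genes, Tlr3 was lower in KO by −0.62 ± 0.07 under NT siRNA (limma adjusted p = 1e-04) and by −0.60 ± 0.07 under H2AZ siRNA (adjusted p = 0.00012), where the DMSO difference of −0.19 had not passed. Zbp1 had 19 to 63 reads per library, and its groups overlapped. Its KO to WT differences without the filter were 0.01 ± 0.08 (adjusted p = 1) and −0.06 ± 0.08 (adjusted p = 0.66), so no difference was detectable at this depth.

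Eif2ak2 was at 17.7, 12.7 and 13.8 RPKM in WT NT siRNA, 9.78, 7.72 and 6.68 in KO NT siRNA, 13.1, 12.5 and 13.9 in WT H2AZ siRNA and 8.43, 7.18 and 7.88 in KO H2AZ siRNA. It was lower in KO by −0.80 ± 0.13 (limma adjusted p = 0.00023) and −0.68 ± 0.13 (adjusted p = 0.00069), close in size to the DMSO value of −0.69. Adar was at 6.28, 6.13 and 6.23 RPKM in WT NT siRNA, 5.07, 5.21 and 5.14 in KO NT siRNA, 5.72, 6.22 and 5.65 in WT H2AZ siRNA and 4.51, 4.05 and 4.56 in KO H2AZ siRNA. The groups did not overlap between genotypes, but the changes, −0.23 ± 0.05 (adjusted p = 0.0022) and −0.35 ± 0.05 (adjusted p = 0.00013), were smaller than the −1.26 in DMSO. After median centring they were −0.11 (adjusted p = 0.13) and −0.20 (adjusted p = 0.011).

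H2AZ siRNA brought H2afz, the main H2A.Z gene, from 199 to 203 RPKM down to 16.6 to 17.5 in WT, and from 184 to 199 down to 26.4 to 30.4 in KO. H2afv, the second H2A.Z gene, went from 15.5 to 19.0 down to 1.45 to 1.63 in WT and from 21.7 to 23.7 down to 2.46 to 3.93 in KO. In WT 1 of 8 sensor genes, Mavs, passed, as lower, against 10.4% of genes tested (15.3% in either direction). In KO 4 of 8 passed as lower, Mavs, Ddx58, Tmem173 and Adar, against 19.0% (25.5% in either direction). None passed as higher, against 4.88% in WT and 6.56% in KO, and none did at an unadjusted p under 0.05 or by limma-voom. Median centring changed the split of all called genes from 618 higher and 1315 lower to 1306 and 878 in WT, and from 831 and 2404 to 2010 and 1367 in KO.

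Mavs fell 1.34-fold in WT (−0.35 ± 0.05, limma adjusted p = 0.0013) and 1.38-fold in KO (−0.39 ± 0.05, adjusted p = 0.00033), with no overlap between siRNAs in either genotype, and it fell under median centring too (−0.29, adjusted p = 0.0064 in WT and −0.30, adjusted p = 0.0033 in KO). Ddx58 fell in KO by −0.28 ± 0.06 (adjusted p = 0.0087). In WT its change was −0.19 ± 0.06 (adjusted p = 0.062), which passed with limma-voom (0.048) and without WT NT siRNA replicate 2 (0.025). The falls of Tmem173 in KO (−0.24 ± 0.07, adjusted p = 0.024) and of Adar in KO (−0.19 ± 0.05, adjusted p = 0.019) were lost under median centring (adjusted p = 0.076 and 0.2) and with only the 2 KO groups in the fit (0.071 and 0.073). Both were also lost without KO H2AZ siRNA replicate 2 (0.098 and 0.076) or KO NT siRNA replicate 3 (0.069 and 0.053), and that of Tmem173 without the filter (0.064) or without KO H2AZ siRNA replicate 1 (0.083) or KO NT siRNA replicate 1 (0.063). Cgas, with 0.14 ± 0.09 in KO (adjusted p = 0.27), passed as higher under median centring alone (0.23, adjusted p = 0.031). For the other genes changes ran from −0.14 to 0.03 in WT and from −0.10 to −0.03 in KO.

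The response to H2AZ siRNA was not shown to differ between genotypes for any of the 8 genes. None passed in the interaction by limma, by limma-voom or at an unadjusted p under 0.05. Estimates ran from −0.18 for Tmem173 to 0.19 for Cgas. Of all 12668 genes 1 passed (0.00789%), the main H2A.Z gene H2afz (0.72 ± 0.08, limma adjusted p = 0.012). H2afz fell 11.7-fold in WT and 6.95-fold in KO, so the genotypes were compared at unequal depletion of its RNA.

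Beyond the 10 genes, 91 others of the sensing pathways were followed: adaptors, kinases and transcription factors, other sensors, regulators, nucleases that limit the ligands, relatives of PKR and ADAR, the cell death arm of ZBP1 and interferon ligands. Of these, 70 passed the filter in the DAC experiment and 64 in the siRNA experiment. With DAC 25 were higher and 3 lower in WT, 40.0% of the list beside 28.3% of all genes tested. In KO 24 were higher and 9 lower, 47.1% beside 45.2%. The median log2 fold changes were 0.13 and 0.19, beside −0.01 and 0.01 over all genes. In the interaction 12 had the larger and 6 the smaller value in KO, 25.7% beside 24.1%. In KO and in the interaction the shares called in either direction were thus near those of all genes. The list leaned to higher, where all genes split more evenly. Of all genes tested 14.5% were higher and 13.8% lower in WT, 23.7% and 21.6% in KO, and 12.4% and 11.7% in the interaction. Irf7, the interferon-induced factor that amplifies type I interferon transcription, went from 19.95 to 61.9 FPKM in WT (1.58 ± 0.11, limma adjusted p = 2.6e-05) and from 10.8 to 55.4 in KO (2.25 ± 0.11, adjusted p = 8.2e-07), with an interaction of 0.67 ± 0.15 (adjusted p = 0.012). Ifi204, a DNA-binding protein that acts with STING, went from 9.09 to 25.7 FPKM in WT (1.4 ± 0.07, adjusted p = 7.5e-06) and from 5.99 to 25.0 in KO (1.89 ± 0.07, adjusted p = 2.5e-07). Ifi211, a relative that the list held as Mnda and that was matched through RefSeq synonyms, rose by 1.16 ± 0.06 (adjusted p = 7.5e-06) and 1.62 ± 0.06 (adjusted p = 2.1e-07). In the interaction Ifi203, of the same family, had 0.75 ± 0.16 (adjusted p = 0.011), and Rnaseh2a, the catalytic subunit of RNase H2, had −0.66 ± 0.19 (adjusted p = 0.037).

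Among the genes that fell with DAC, Ticam1, the adaptor of TLR3, fell in WT from 12.7 to 9.26 FPKM (−0.42 ± 0.09, limma adjusted p = 0.007). Prkra, an activator of PKR, fell in WT by −0.41 ± 0.12 (adjusted p = 0.028), and Zdhhc1, reported to act with STING, in KO by −0.44 ± 0.12 (adjusted p = 0.014). Enpp1, which breaks down cyclic GMP-AMP, fell in WT by −0.39 ± 0.11 (adjusted p = 0.034) and in KO by −1.41 ± 0.11 (adjusted p = 1.7e-05), from 30.6 to 10.9 FPKM, and its interaction was −1.03 ± 0.16 (adjusted p = 0.002). Irf5 moved furthest. It fell in KO from 25.8 to 4.27 FPKM (−2.34 ± 0.11, adjusted p = 9e-07) and was 0.891 in WT DMSO and 2.25 in WT DAC, with an interaction of −3.13 ± 0.16 (adjusted p = 5.5e-06). Irf5 is a transcription factor downstream of MAVS and endosomal Toll-like receptors. Like the summed mesothelial markers, Irf5 was highest in KO DMSO, and their part in that result was not tested.

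Between genotypes in DMSO 10 of the 70 were higher and 22 lower in KO, together near the 42.4% of all genes called in either direction. Of all genes 19.6% were higher and 22.9% lower. In DAC 9 were higher and 12 lower, beside 22.7% of all genes in either direction (11.1% and 11.6%). In DMSO Irf5 (3.82 ± 0.12, limma adjusted p = 9.9e-08), Enpp1 (0.96 ± 0.12, adjusted p = 0.00032) and Tbkbp1, a binding partner of the kinase TBK1 (0.93 ± 0.09, adjusted p = 6.2e-05), led the higher genes. Ppp1r15a, which reverses the action of PKR on translation (−0.94 ± 0.18, adjusted p = 0.0033), Mlkl, the executioner of necroptosis (−0.94 ± 0.07, adjusted p = 1e-05), and Irf7 (−0.83 ± 0.12, adjusted p = 0.00049) led the lower ones. In DAC Irf5 and Tbkbp1 were again higher in KO, by 0.69 ± 0.10 (adjusted p = 0.0017) and 0.55 ± 0.08 (adjusted p = 0.0013). The nucleases Rnaset2a and Rnaset2b were lower by −0.995 ± 0.203 (adjusted p = 0.009) and −0.903 ± 0.200 (adjusted p = 0.013); they are near-identical copies, so their reads may be shared between them.

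The death arm of ZBP1 held 7 genes, all tested. With DAC 3 were higher in WT, and 2 higher and 1 lower in KO, 42.9% of the list in each, beside 28.3% and 45.2% of all genes. Ripk3, the kinase that ZBP1 engages, was at 8.58 FPKM in WT DMSO, 8.06 in KO DMSO, 11.9 in WT DAC and 22.4 in KO DAC. It rose in WT by 0.43 ± 0.08 (limma adjusted p = 0.0048) and in KO by 1.37 ± 0.08 (adjusted p = 3e-06), with an interaction of 0.94 ± 0.11 (adjusted p = 0.00051). Among DAC libraries KO exceeded WT by 0.86 ± 0.07 (adjusted p = 9.3e-05). Mlkl, which RIPK3 activates, was at 11.9, 5.74, 24.2 and 18.1 FPKM in the same groups. It rose in WT (0.96 ± 0.06, adjusted p = 2.5e-05) and KO (1.5 ± 0.06, adjusted p = 4.9e-07) and was lower in KO in DAC (−0.39 ± 0.06, adjusted p = 0.0016). Casp6, a caspase tied to the same complex, fell in KO by −0.41 ± 0.09 (adjusted p = 0.0048), with 0.10 ± 0.09 in WT (adjusted p = 0.43) and an interaction of −0.51 ± 0.12 (adjusted p = 0.016). Gsdmd rose in WT by 0.77 ± 0.24 (adjusted p = 0.046) and had 0.05 ± 0.24 in KO (adjusted p = 0.89). Ripk1 and Fadd, which link death receptors to this complex, did not pass in either genotype, with values of 0.02 to 0.24. Casp8, which restrains the route, had changes of −0.0009 ± 0.0817 in WT cells (adjusted p = 1) and, in KO cells, 0.18 ± 0.08 (adjusted p = 0.1).

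Interferon ligands were close to undetected. None of the 9 listed passed the filter, and together they had 0 to 16 reads in a library of the DAC experiment and 0 to 3 in one of the siRNA experiment. Ifnb1, the interferon beta gene, had 0 reads in each of the 4 DMSO libraries and 0 to 4 in the 6 DAC libraries. Among the other sensors Tlr7, Tlr8, Tlr9, Tlr13 and Aim2 were below the filter in both tables, with Tlr7 at 0.0319 to 1.01 FPKM and Aim2 at 0.0182 to 1.04 in the DAC table. Trex1, a nuclease that degrades cytosolic DNA, is listed at 0 in all 22 libraries; a lack of its RNA and a gene model that took no reads cannot be told apart, since the counting is not described in the sources used here.

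With NT siRNA 14 of 64 pathway genes were higher and 31 lower in KO, beside 64.1% of all genes called in either direction. With H2AZ siRNA 13 were higher and 33 lower, beside 62.9%. Median centring gave 19 and 22 with NT siRNA, and 17 and 20 with H2AZ siRNA. Tbkbp1 reached 1 RPKM in 4 KO and 0 WT libraries, and Nlrc5 in 6 WT and 0 KO libraries. They entered the test through 1 genotype only, as did Irf5, so any call of these genes in the counts is a description. Irf5, which reached 1 RPKM in all 6 KO libraries and 0 WT libraries and so entered the test only through KO, was again higher there (1.55 ± 0.08 with NT siRNA, limma adjusted p = 2.8e-08), as were Gsdmd, the pore-forming protein of pyroptosis (1.35 ± 0.08, adjusted p = 1e-07), and Skiv2l, a subunit of an RNA-degrading complex (0.58 ± 0.06, adjusted p = 5e-06). Mlkl was lower, at 4.80 RPKM in KO NT siRNA and 17.2 in WT NT siRNA (−1.65 ± 0.05, adjusted p = 4.3e-10). Dnajc3, an inhibitor of PKR, was lower by −0.91 ± 0.10 (adjusted p = 1.1e-05), and Pnpt1, a mitochondrial RNA nuclease, by −0.88 ± 0.15 (adjusted p = 0.00036). With H2AZ siRNA Irf5 (1.49 ± 0.08, adjusted p = 3.8e-08), Gsdmd (0.90 ± 0.08, adjusted p = 2.9e-06) and Skiv2l (0.53 ± 0.06, adjusted p = 9.6e-06) were higher too. Among the lower, Mlkl was −1.78 ± 0.05 (adjusted p = 1.9e-10), Pnpt1 −0.96 ± 0.15 (adjusted p = 2e-04) and Azi2, an adaptor of TBK1, −0.94 ± 0.08 (adjusted p = 2.1e-06).

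H2AZ siRNA changed 5 of the 64 in WT, all lower, and in KO 3 were higher and 15 lower, beside 15.3% and 25.5% of all genes; with median centring the splits became 4 higher and 2 lower, and 8 and 7. Ddx41, a helicase reported to sense DNA upstream of STING, fell from 16.5 to 12.1 RPKM in WT (−0.42 ± 0.05, limma adjusted p = 0.00049) and from 21.3 to 13.4 in KO (−0.63 ± 0.05, adjusted p = 3.6e-05). Zdhhc1 fell by −0.41 ± 0.10 (adjusted p = 0.02) and −0.48 ± 0.10 (adjusted p = 0.0061). Stim1, which holds STING at the endoplasmic reticulum, fell in WT by −0.26 ± 0.06 (adjusted p = 0.02; 0.062 with median centring) and likewise in KO by −0.31 ± 0.06 (adjusted p = 0.0054). Rnaseh2c, another subunit of RNase H2, fell in WT by −0.25 ± 0.06 (adjusted p = 0.02; 0.1 with median centring) and likewise in KO by −0.37 ± 0.06 (adjusted p = 0.0016). Casp8 (0.34 ± 0.10, adjusted p = 0.027), Ppp1r15a (0.27 ± 0.07, adjusted p = 0.021) and Casp6 (0.24 ± 0.06, adjusted p = 0.0093) rose in KO. None of the 64 passed in the interaction by limma or limma-voom, where 8 and 9 had an unadjusted p under 0.05. The share of all genes under that unadjusted threshold is not given here.

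Only Ddx58 had group means that spanned at least 1 on the log2 scale in each table, by 1.56 and 1.05. Of 11837 genes tested in both tables, the 3 whose 8 group means lay closest to its own, each table centred on its mean, were Loxl4, Erap1 and Trim12c, with root-mean-square differences of 0.11, 0.12 and 0.12 on the log2 scale. Loxl4 encodes a collagen-crosslinking oxidase, Erap1 an enzyme that trims peptides for antigen presentation and Trim12c a member of the TRIM family. The other 9 genes fell short of that span in 1 table or both.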

How the data were processed

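RNA was made into libraries with a TruSeq Stranded Total RNA kit and read as 150-base pairs, per the labels' protocols. STAR, Bowtie2, deepTools and mm10 are named in the submitters' processing notes. The read counter, annotation and strand setting were not given in the sources used here. The authors deposited FPKM values for 10 libraries and RPKM values for 12, in separate tables of 43432 genes, each scaled by gene length and library depth; per the file headers, columns name genotype and treatment. The 31 CUT&Tag samples were not analysed here. For all 35023 genes above 0, values were whole multiples of 1 read to within 0.01 reads (100%), so counts and depth were recovered. Whether 1 count is a read or a read pair is not known here, and the text calls both reads. The members and lists were chosen with earlier results of these data known.

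Each table was fitted on log2(value + 1) with limma 3.58.1 (trend) in R 4.3.3, with its 4 groups in 1 fit and no covariate. Genes needed a value of 1 in 2 (DAC, 16434 genes) or 3 libraries (siRNA, 12668). P-values were adjusted by Benjamini and Hochberg over all genes of a comparison and called under 0.05. Fold changes are on the log2(value + 1) scale, errors are SE, and folds in the text are ratios of group means. Tables used Python 3.11.15, numpy 2.4.6 and pandas 2.3.3, and figures matplotlib 3.10.9. Scripts were tested on simulated data.

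All 10 members were described. Pathway genes were named by rule: up to 3 called higher and 3 lower per comparison, by fold, with a mean of 2 or more in the higher group and libraries that do not overlap; interactions had no such condition on overlap. The ZBP1 death arm, Stim1 and Rnaseh2c in both genotypes, and Irf5 and Irf7 across groups were added after their values were seen. Genes like a member were sought where group means spanned at least 1 in each table. Alternatives tried were adding 0.1 in place of 1, testing genes at any level or only from 5 up, centring libraries on their median, a replicate block, a fit of only the groups compared, limma-voom on recovered reads and each library left out; leaving out the 2 libraries that stand apart in each table, and the motif AANNGAAA, were added after the data were seen. Same-numbered libraries deviated together between H2AZ and NT siRNA in KO, with correlations of 0.156, 0.144 and 0.270. Between KO and WT they were 0.319, 0.109 and 0.023 with NT siRNA, and 0.045, 0.037 and 0.074 with H2AZ siRNA. Numbers were taken to pair samples only between H2AZ and NT siRNA in KO, a choice that these values do not settle. The limma p-values printed for that comparison come from the fit without a covariate and do not use the pairing. Protein sequences were not used here.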

Additional observations from a re-analysis of the deposited data

Results flagged for a closer look

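The DAC response differed between KO and WT, by limma's interaction term with an adjusted p under 0.05, for 7 of the 10 genes; 24.1% of all genes tested did so. The log2 change in KO minus that in WT was 1.1354 for Dhx58 (adjusted p = 8e-04), 0.9957 for Ddx58 (adjusted p = 2.2e-05), 0.9857 for Adar (adjusted p = 0.00059), 0.7517 for Cgas (adjusted p = 0.014), 0.6461 for Eif2ak2 (adjusted p = 0.00067), 0.491 for Ifih1 (adjusted p = 0.0024) and −0.8202 for Tmem173 (adjusted p = 0.00017). For 6 of these genes KO DMSO was the lowest of the 4 groups, and for Tmem173 WT DMSO was. Each value rests on 2 DMSO libraries per genotype.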

How the results depend on the processing

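Over the alternatives, 1672 values of the 90 changes of single genes were computed: 1620 kept direction and side of the threshold, 41 lost the call, 11 gained it and none reversed. Of the counts that moved by over 1.5 times, the genes called between KO and WT in DAC went from 3 to 5 with limma-voom and without both libraries that stand apart. Those called for H2AZ siRNA went in WT from 1 to 2 with limma-voom, and in KO from 4 to 2 with only the groups compared. Pathway counts went for KO against WT in DAC from 21 to 12 with only the groups compared, and for the DAC interaction from 18 to 29 without both libraries that stand apart. With a filter at 5, which tests fewer genes, they went from 45 to 26 for KO against WT with NT siRNA, from 46 to 28 with H2AZ siRNA, and from 5 to 3 for H2AZ siRNA in WT, also 3 with only the groups compared and without both libraries that stand apart. For H2AZ siRNA in KO they went from 18 to 10 with only the groups compared. Where no other reason is given, the cause was not tested. For these refits the shares of all genes called are not given here, so a moved count may follow a move over all genes.

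The replicate number was also fitted as a block shared by the 4 groups of an experiment. With it 2 of the 8 genes were called for H2AZ siRNA in WT, and 4 in KO, as without it. This shared block changed no member's call in KO. A block within the KO groups alone, where the numbers were taken to pair samples, was not fitted. Elsewhere numbers were not taken to pair samples; there the block gave Ddx58 for H2AZ siRNA in WT an adjusted p of 0.046, Adar between KO and WT in DAC 0.057 and Cgas for DAC in WT 0.067 (limma).

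Leaving out 1 library gave 5 to 9 calls for DAC in WT (5 without WT DMSO replicate 2), 2 to 4 between KO and WT in DAC, 1 to 2 for H2AZ siRNA in WT (2 without WT NT siRNA replicate 2) and 2 to 4 in KO (2 without KO H2AZ siRNA replicate 2 or KO NT siRNA replicate 3). For pathway genes it gave 13 to 20 between KO and WT in DAC, 15 to 31 for DAC in WT, 9 to 19 for the DAC interaction, 1 to 8 for H2AZ siRNA in WT and 10 to 19 in KO. Reads limit Zbp1, Tlr3 and Dhx58 in the siRNA table.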
